A study of Mus musculus with 4 samples.

Results

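Colec10 and Mal2 lie next to each other on mouse chromosome 15, and both were among the largest increases in DPPIV+ over DPPIV- fibro-adipogenic progenitors (FAPs). They are described here with Tnfrsf11b, Taf2, Dscc1 and Deptor, which lie around them, so that the group holds 6 of the 24421 gene symbols that were counted. The group was chosen by map position and by the difference between DPPIV+ and DPPIV- FAPs itself. Values of the members for that difference are therefore a description, and no test of it is given for them. Their standard errors (SE) come from the same fit and are not to be read as a test.

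FAPs are stromal cells of skeletal muscle that support the muscle's other cells, and DPPIV (CD26, encoded by Dpp4) is a surface peptidase that marks a subset of them. Bulk RNA was sequenced from DPPIV- FAPs and DPPIV+ FAPs of 2 mice, which gave 4 libraries and n = 2 mice for each cell type. All animals were wild-type and had received 3 weeks of CSF1R inhibition and then 3 days of a regular diet, and the cells were sorted as PI- CD31- CD45- Sca1+ and then by DPPIV. CSF1R is a receptor on which many macrophages depend. No untreated animals were among these libraries, so nothing here compares treated with untreated muscle. The labels number the animals, and the lower number is mouse 1 here and the higher mouse 2. They give no age, and the study describes adult mice of both sexes over a range of ages. The labels name the tibialis anterior as the tissue, whereas their own extraction protocol and the study's methods describe muscle of both hindlimbs.

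The products of the 6 genes work in different places. Tnfrsf11b encodes osteoprotegerin, a secreted decoy receptor that binds the cytokines RANKL and TRAIL and is best known for restraining osteoclast formation. Colec10 encodes collectin liver 1, a secreted lectin that binds sugars on microbes and can start the lectin pathway of complement together with MASP proteases. Mal2 encodes a small membrane protein with 4 spans that carries cargo across polarised epithelial cells. Taf2 is a subunit of TFIID, the general factor that places RNA polymerase II at promoters, Dscc1 is a subunit of the clamp loader that helps sister chromatids stay together, and Deptor binds mTOR and inhibits it in both of its complexes.

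Between 18240110 and 20879405 reads were counted on genes in each library, and 3 reads corresponded to 0.143 to 0.167 CPM, the read count scaled by library size. CPM values here include edgeR's TMM factors, which correct for library composition. Dpp4 separated the libraries in the direction of their labels, with 1879 (mouse 1) and 776 (mouse 2) reads in the DPPIV- libraries against 13106 and 10476 in the DPPIV+ libraries. The DPPIV- level of Dpp4 was 12.3% of the DPPIV+ level in mouse 1 and 6.90% in mouse 2. FAP markers, among them Pdgfra, Ly6a and Dcn, summed to between 26062 and 34750 CPM in every library, most of it from Col1a1 and Dcn. The sums were 35.3 to 69.1 CPM for blood endothelium and 65.7 to 105 CPM for leukocytes and macrophages. They were 197 to 1550 CPM for tenocytes and 236 to 308 CPM for lymphatic endothelium, the latter mostly Pdpn. Satellite cell and myofibre markers summed to 29.4 to 44.7 CPM, and glia and perineurium markers to 25.4 to 33.4 CPM. In bulk samples of this kind, fewer cells of a type and less RNA per cell cannot be told apart.

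The members occupy 1008.7 kb of chromosome 15 between positions 54250619 and 55259271 (GRCm38, the mm10 build to which the reads were aligned). Tnfrsf11b (ENSMUSG00000063727.3) lies on the minus strand at chr15:54250619-54278484. Colec10 (ENSMUSG00000038591.3) follows on the plus strand at chr15:54410774-54466358, and Mal2 (ENSMUSG00000024479.3) on the plus strand at chr15:54571192-54602847. The gap from Tnfrsf11b to Colec10 is 132.3 kb and that from Colec10 to Mal2 104.8 kb, with no other counted gene in either. After Mal2 come the non-members Nov (annotated as Ccn3) and Enpp2, and then Taf2 (ENSMUSG00000037343.8, minus strand, chr15:55015131-55072152). Dscc1 (ENSMUSG00000022422.13, minus strand, chr15:55076099-55090491) starts 3.9 kb after Taf2, and Deptor (ENSMUSG00000022419.16, plus strand, chr15:55112317-55259271) starts 21.8 kb after Dscc1.

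Colec10 and Mal2 read higher in DPPIV+ FAPs in both mice and Deptor read lower in both. Tnfrsf11b and Dscc1 read higher and Taf2 lower. For Taf2 and Dscc1 in both mice, and for Tnfrsf11b in mouse 2, the counting interval included equal levels. Counting intervals of the members cover counting error only. Since the members were chosen on this difference, their intervals are not to be read as a test of it. Sizes ran from a few percent to more than 100-fold. Tests were run on genes that reached 2 CPM in 2 or more libraries, which left 11588 genes and 5 of the 6 members. Dscc1 did not pass. Colec10 and Mal2 passed through their DPPIV+ libraries alone, so that a difference between the cell types was built into their passing. In edgeR's quasi-likelihood test, 33.0% of all genes tested were past an adjusted p of 0.05, with 15.9% higher in DPPIV+ FAPs and 17.2% lower.

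**Figure D1:**
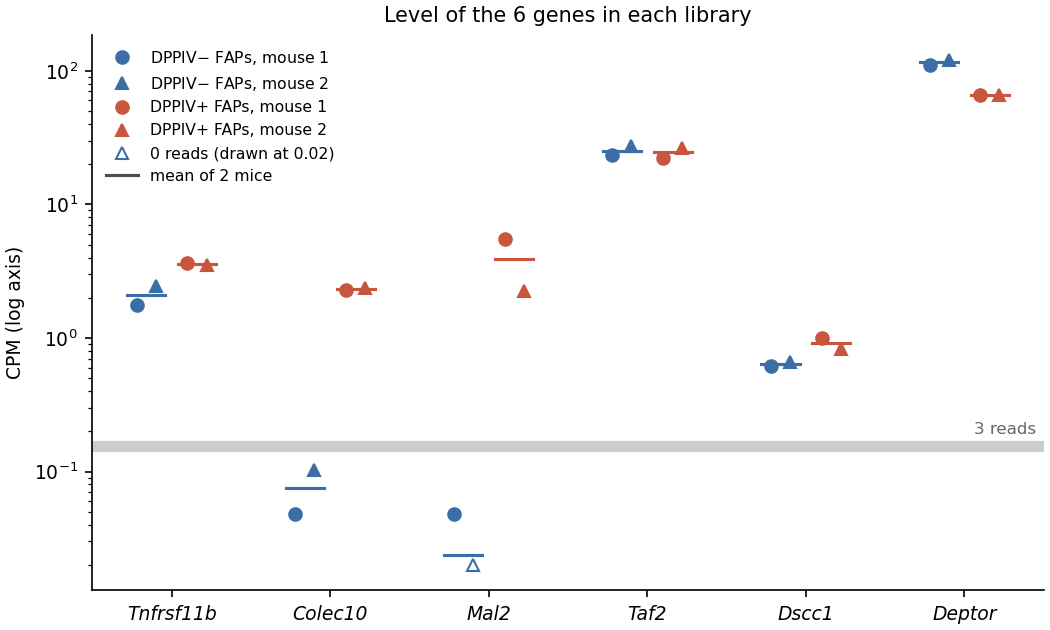
Level of each of the 6 members in the 4 libraries, in CPM on TMM-scaled library sizes (logarithmic vertical axis), with circles for mouse 1, triangles for mouse 2, horizontal bars for the mean of both mice, an open triangle drawn at 0.02 for a library with 0 reads, and a grey band for the level of 3 reads. Colec10 and Mal2 are at or below 0.102 CPM in the DPPIV- libraries and at or above 2.25 CPM in the DPPIV+ libraries, Taf2 lies between 22.3 and 27.2 CPM in all 4, and Deptor lies at 111 and 120.4 CPM without DPPIV and at 65.6 and 66.2 CPM with it.

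Colec10 was close to absent from DPPIV- FAPs and low but measurable in DPPIV+ FAPs. It had 1 read in the DPPIV- library of mouse 1 and 2 reads in that of mouse 2, against 41 and 43 reads in the DPPIV+ libraries. The DPPIV+ values were nearly equal and both DPPIV- values lay under the 3-read limit, so the cell types did not overlap. The mean level was 0.0750 ± 0.0385 CPM without DPPIV and 2.32 ± 0.0580 CPM with it (SD, n = 2 each). The fitted log2 fold change was 4.85 (SE 0.52), the fifth largest increase of all genes tested.

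Because the DPPIV- reads were so few, the size of the Colec10 difference is known only broadly. In mouse 1 the DPPIV+ level was 47.7 times the DPPIV- level, with an exact 95% counting interval from 8.09 to 1927, and in mouse 2 it was 23.1 times as high, with an interval from 6.01 to 197. Summed over mice, 3 reads stood against 84, a ratio of 31.3 (10.3 to 155). These intervals cover counting error only, and they are still wider than the SE of the fit implies. In the percent form used for Dpp4, the DPPIV- level of Colec10 was 2.10% of the DPPIV+ level in mouse 1 and 4.33% in mouse 2. The counting intervals of Colec10 include the folds of Dpp4 in both mice, 8.11 and 14.5.

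Mal2 showed the largest fitted increase of all genes tested and, as a ratio, the greatest spread between the DPPIV+ libraries among the members. It had 1 read in the DPPIV- library of mouse 1 and 0 reads in that of mouse 2, against 99 reads in the DPPIV+ library of mouse 1 and 41 in that of mouse 2. The cell types did not overlap, and within DPPIV+ FAPs mouse 1 was the higher one by 2.44 times. DPPIV- FAPs averaged 0.0239 ± 0.0338 CPM, and the average of DPPIV+ FAPs was 3.87 ± 2.30 CPM (SD, n = 2 each). The fitted log2 fold change was 6.98 (SE 0.58), and its value depends on the prior count, since 1 of the DPPIV- libraries held 0 reads. The SE, derived from the F statistic of the fit, gives a tighter range than the read counts allow.

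Bounds from the reads put limits on the Mal2 difference. In mouse 1 the DPPIV+ level was 115 times the DPPIV- level (exact 95% counting interval 20.2 to 4590). In mouse 2, where the DPPIV- library held 0 reads, the lower bound of the exact counting interval was 11.4. Summed over mice, 1 read stood against 140, a ratio of 156 (27.6 to 6222). Mal2 in the DPPIV- library of mouse 1 was 0.869% of its DPPIV+ level in the same mouse.

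Tnfrsf11b, the neighbour on the other side of Colec10, was present in both cell types and moderately higher in DPPIV+ FAPs. It had 37 reads in the DPPIV- library of mouse 1 and 48 in that of mouse 2, and 66 and 64 in the DPPIV+ libraries. The DPPIV+ libraries were close to each other and lay above both DPPIV- libraries, of which that of mouse 1 was the lower. Mean levels were 2.11 ± 0.485 CPM and 3.59 ± 0.109 CPM (SD, n = 2 each), and the fitted log2 fold change was 0.77 (SE 0.26). The ratio was 2.07 in mouse 1 (1.37 to 3.19) and 1.43 in mouse 2, where the counting interval of 0.969 to 2.13 included equal levels.

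Deptor was the most abundant member and the one that was clearly lower in DPPIV+ FAPs. Its reads numbered 2320 (mouse 1) and 2356 (mouse 2) without DPPIV, and 1181 and 1206 with it. The values within each cell type were nearly equal and the cell types did not overlap. The mean was 116 ± 6.78 CPM in DPPIV- FAPs against 65.9 ± 0.404 CPM in DPPIV+ FAPs (SD, n = 2 each), a fitted log2 fold change of -0.81 (SE 0.07). With its depth the ratio was narrow, at 0.592 in mouse 1 (0.551 to 0.635) and 0.549 in mouse 2 (0.512 to 0.589). Deptor shares 303 exon bases with Gm9920 on the other strand, which had 9 and 14 reads in DPPIV- FAPs and 6 and 4 in DPPIV+ FAPs.

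Taf2 was at the same order of level in all libraries. In mouse 1 it had 486 reads in DPPIV- and 402 in DPPIV+ FAPs, and in mouse 2 it had 533 and 485. The cell types overlapped, at 25.2 ± 2.85 CPM and 24.5 ± 3.03 CPM (SD, n = 2 each), and in each cell type mouse 2 was the higher one. The fitted log2 fold change was -0.05 (SE 0.10). The ratio was 0.961 in mouse 1 and 0.976 (0.862 to 1.11) in mouse 2, and the counting interval included equal levels in each.

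Dscc1 was scarce in both cell types. It had 13 reads in each DPPIV- library, and in DPPIV+ FAPs 18 reads in mouse 1 and 15 in mouse 2. The DPPIV+ values lay above the DPPIV- values by a few reads, at 1.000 and 0.823 CPM against 0.621 and 0.665 CPM. The ratio of the summed reads, 33 against 26, was 1.42 with a counting interval from 0.823 to 2.47, which at this depth included equal levels. Dscc1 also shares 199 exon bases with the antisense gene Gm41325, which was not among the counted symbols.

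**Figure D2:**
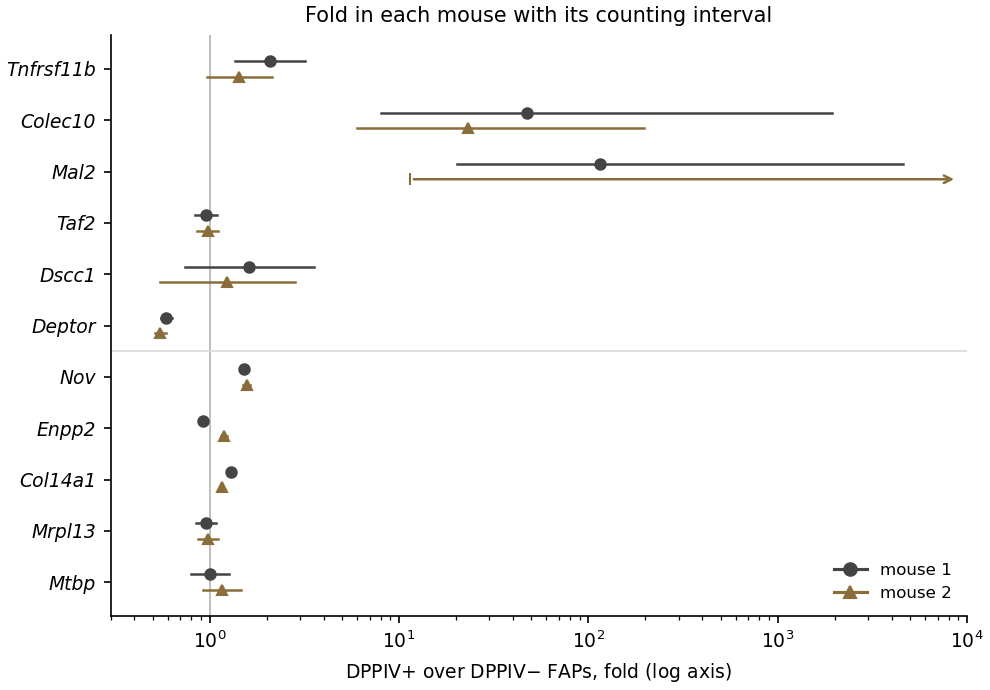
Fold of DPPIV+ over DPPIV- FAPs (logarithmic horizontal axis) in mouse 1 and in mouse 2 for the 6 members and, under the line, the 5 tested genes of the same region that are not members, with exact 95% counting intervals as bars and, for Mal2 in mouse 2, an arrow from the lower counting bound of 11.4. Mal2 and Colec10 stand far to the right in both mice, Taf2 lies at 0.961 and 0.976, and Deptor lies at 0.592 and 0.549.

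Levels were compared between members per kilobase of exon, since longer transcripts gather more reads. In DPPIV- FAPs the order was Deptor at 13.0 CPM per kb, Taf2 at 3.67, Tnfrsf11b at 0.749, Dscc1 at 0.145, Colec10 at 0.0164 and Mal2 at 0.00810. In that order only the neighbours Colec10 and Mal2 overlapped between libraries. In DPPIV+ FAPs the order was Deptor at 7.42, Taf2 at 3.56, Mal2 at 1.31, Tnfrsf11b at 1.27, Colec10 at 0.505 and Dscc1 at 0.206. Mal2 thus moved from below Dscc1 to the level of Tnfrsf11b, from which it did not differ beyond its spread, with 1.86 CPM per kb in mouse 1 and 0.762 in mouse 2 against 1.30 and 1.25 for Tnfrsf11b. Colec10 passed Dscc1 but stayed under Tnfrsf11b in both DPPIV+ libraries.

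The difference between the mice was not used to choose the members and was tested with edgeR's quasi-likelihood test with cell type in the model. Of the 5 members tested, 1 was past the threshold, Mal2, beside 8.98% of all genes tested. Mal2 was lower in mouse 2, with a log2 fold change of -1.31 (SE 0.34) and a Benjamini-Hochberg adjusted p of 0.00345. The difference rested on the DPPIV+ libraries, 1 from each mouse, with 99 and 41 reads, since the 1 and 0 reads in DPPIV- FAPs are under the 3-read limit. Each side of this contrast is 1 animal, so the p measures counting error and the spread shared across genes, not the spread between animals. With DESeq2 the log2 fold change was -1.39 with an unadjusted p of 0.0811 and no adjusted p, and with cell type left out of the edgeR model the adjusted p was 0.999.

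None of the other 4 members passed that test. For Taf2 the log2 fold change of mouse 2 against mouse 1 was 0.24 (SE 0.10; edgeR adjusted p = 0.0998), and it was higher in mouse 2 in both cell types. For Tnfrsf11b it was 0.17 (SE 0.26; edgeR adjusted p = 0.788), for Colec10 0.10 (SE 0.37; edgeR adjusted p = 0.929) and for Deptor 0.07 (SE 0.07; edgeR adjusted p = 0.621). Dpp4 moved the same way as Mal2, with a log2 fold change of -0.71 (SE 0.07; edgeR adjusted p = 2.63e-20), lower in mouse 2 in both cell types. Its part in the Mal2 difference was not tested.

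Genes around the members were read in a window that reached 1 Mb beyond them on each side (chr15:53250619-56259271). The annotation places 40 genes there, of which 15 were counted, and 9 of those are not members. Of these 9, 5 passed the filter, and 2 of the 5 were higher in DPPIV+ FAPs and 0 lower, beside 15.9% and 17.2% of all genes tested. The count of lower genes was also 0 at an unadjusted p under 0.05 and with DESeq2. Their median log2 fold change was 0.11, against -0.002 for all genes tested.

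Nov, which encodes the matricellular protein CCN3, lies 142.9 kb after Mal2 and is its nearest counted neighbour on that side. In mouse 1 it had 4949 reads in DPPIV- and 6507 in DPPIV+ FAPs, in mouse 2 it had 4458 and 6512, and so the cell types did not overlap. It rose in DPPIV+ FAPs by a log2 fold change of 0.63 (SE 0.07; edgeR adjusted p = 2.24e-19). Col14a1, which encodes a collagen that sits on the surface of collagen fibrils, had 24035 and 23619 reads against 26938 and 25445. It rose by a log2 fold change of 0.30 (SE 0.07; edgeR adjusted p = 0.000205), a call that was lost without mouse in the model (edgeR adjusted p = 0.0629).

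Enpp2, which encodes autotaxin, the secreted enzyme that makes lysophosphatidic acid, lies between Nov and Taf2. It had 8926 (mouse 1) and 6309 (mouse 2) reads in DPPIV- FAPs against 7108 and 6984 in DPPIV+ FAPs, so the DPPIV+ values fell inside the range of the DPPIV- values. Its log2 fold change was 0.07 (SE 0.07; edgeR adjusted p = 0.509), and the mice went opposite ways, at log2 ratios of -0.11 (mouse 1) and 0.25 (mouse 2). Mrpl13, a subunit of the mitochondrial ribosome, and Mtbp, a protein that binds MDM2, share 330 exon bases on opposite strands and were at log2 fold changes of -0.05 (edgeR adjusted p = 0.763) and 0.11 (edgeR adjusted p = 0.686). Under the filter, Sntb1 had 10 and 12 reads against 21 and 10, Samd12 had 3 reads or fewer in each library, and Mir28c had none.

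**Figure D3:**
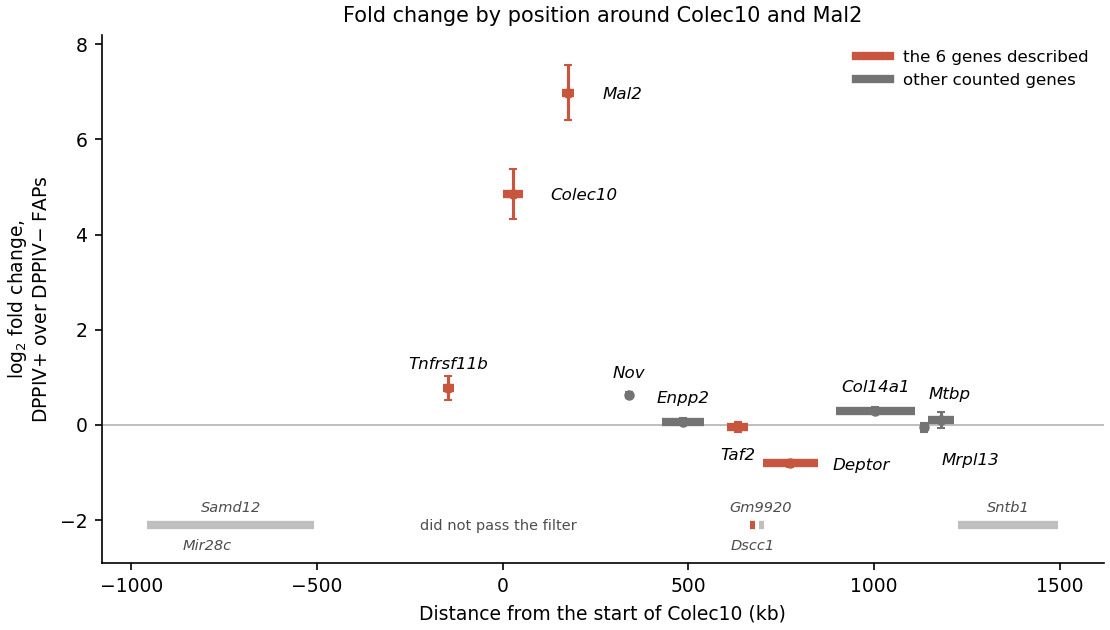
Log2 fold change of DPPIV+ over DPPIV- FAPs (vertical axis, with SE as error bars) by distance from the start of Colec10 (horizontal axis, kb), with a horizontal bar for the extent of each gene, the 6 members in red and other counted genes in grey, and genes that did not pass the filter drawn at the bottom without a value. Colec10 and Mal2 stand at 4.85 and 6.98, and the other genes that passed lie between -0.81 and 0.77.

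Beyond the window, the genes whose 4 levels were most like each member's were found from log2 CPM values centred on their own mean (prior count 2), with the Euclidean distance over the 4 libraries as the measure of likeness. Nearest to Mal2 were Bmp3, at a distance of 0.522 and with 35, 15, 937 and 565 reads in the order DPPIV- mouse 1, DPPIV- mouse 2, DPPIV+ mouse 1 and DPPIV+ mouse 2, then Krtdap at 0.699 and Dmkn at 0.796. In all 3, mouse 1 was the higher animal in both cell types, and in Mal2 it was the higher in DPPIV+ FAPs, its DPPIV- reads being too few to compare. Nearest to Colec10 were Dlg2 at 0.407, with 12, 16, 172 and 140 reads in the same order, Rorb at 0.577 and Aldh1a3 at 0.578. With 0 to 2 DPPIV- reads, the levels of Colec10 and Mal2 there were set largely by the prior count of 2. Their neighbours therefore depend on it. The fitted log2 fold change was 5.08 for Bmp3 against 6.98 for Mal2, and 3.62 for Dlg2 against 4.85 for Colec10.

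The other members sat among flatter patterns. Nearest to Tnfrsf11b were Klf4 at 0.0797, with 11728, 13858, 19632 and 19081 reads, Ctps at 0.115 and Slc38a4 at 0.122. Nearest to Deptor were C7 at 0.0244, with 17872, 18043, 8908 and 9274 reads, Tcaf2 at 0.0356 and 4933431E20Rik at 0.0378. Nearest to Taf2 were Dpp9 at 0.005, Iars at 0.0157 and Asns at 0.028. Between members, Colec10 and Mal2 were 1.58 apart, Taf2 and Deptor 0.787, Tnfrsf11b and Colec10 3.02, and Mal2 and Deptor 5.75. With only 4 libraries these distances describe the libraries and carry no test, and those of Colec10 and Mal2 also depend on the prior count.

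**Figure D4:**
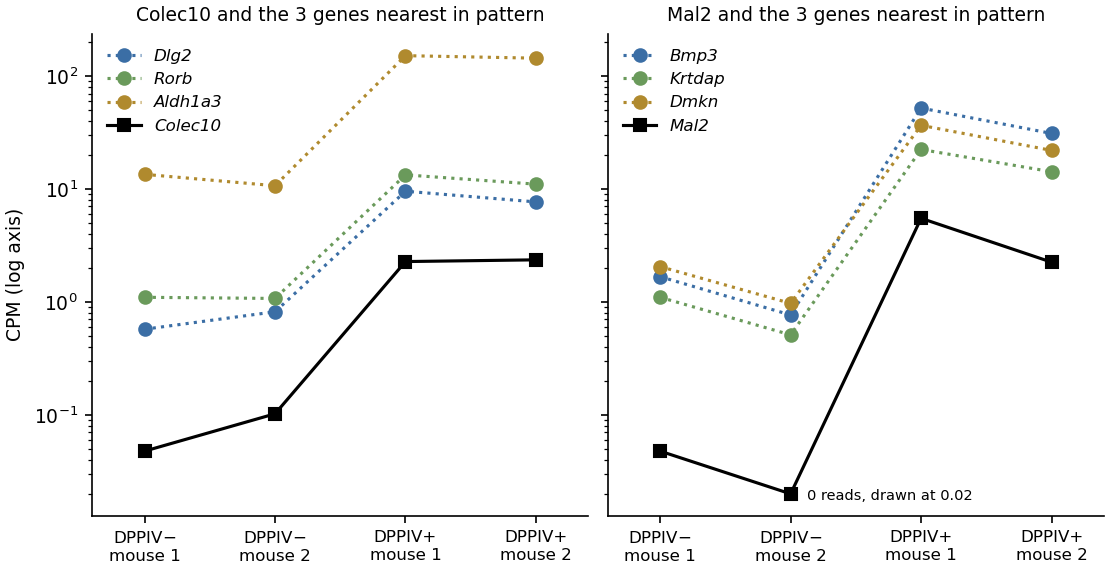
Level in CPM (logarithmic vertical axis) in the 4 libraries (horizontal axis) of Colec10 and of Mal2, as solid lines, and of the 3 genes nearest in pattern to each, as dotted lines, with the 0 reads of Mal2 drawn at 0.02. Bmp3, Krtdap and Dmkn are lower in mouse 2 than in mouse 1 within each cell type and Mal2 is so in DPPIV+ FAPs, whereas Colec10 has 2.28 and 2.36 CPM in the DPPIV+ libraries.

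Genes that work with the members were taken from 6 lists of 83 gene symbols, of which 81 were counted and 63 passed the filter. Of these 63, edgeR called 3 higher and 8 lower in DPPIV+ FAPs, and DESeq2 called 3 and 6. All genes tested gave 15.9% higher and 17.2% lower, with a median log2 fold change of -0.002.

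Of the 4 ligands and receptors around osteoprotegerin, 2 passed the filter, with 0 higher, 1 lower and a median log2 fold change of -0.67. The count of higher genes was also 0 at an unadjusted p under 0.05 and with DESeq2. Tnfrsf10b, the mouse receptor for TRAIL, had 85 and 84 reads in DPPIV- FAPs and 34 and 42 in DPPIV+ FAPs and fell by 1.00 on the log2 scale (SE 0.25; edgeR adjusted p = 0.000425), a call that DESeq2 did not make (adjusted p = 0.153). The ligands themselves were scarce. Tnfsf10, which encodes TRAIL, had a log2 fold change of -0.35 (edgeR adjusted p = 0.281), and Tnfsf11, which encodes RANKL, had 10 and 18 reads in DPPIV- FAPs against 2 and 0 in DPPIV+ FAPs and was not tested.

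Of the 12 listed collectins and genes of the lectin pathway, 5 passed the filter and all 5 were called, with 2 higher, 3 lower and a median log2 fold change of -0.85. C3, the component on which the complement pathways converge, rose from 5521 ± 977 to 11066 ± 885 CPM (SD, n = 2 each; log2 fold change 1.01, SE 0.08, edgeR adjusted p = 2.24e-32). C4b, which the lectin pathway cleaves, had a log2 fold change of 0.85 (edgeR adjusted p = 2.66e-31). Masp1, a protease that collectins carry, had 101 and 116 reads in DPPIV- FAPs and 6 and 7 in DPPIV+ FAPs, and fell by 3.88 on the log2 scale (SE 0.35; edgeR adjusted p = 8.38e-28). The reads of Masp1 thus lay almost wholly in DPPIV- FAPs and those of Colec10 in DPPIV+ FAPs.

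C2, the other substrate of the lectin pathway's proteases, fell by 1.39 on the log2 scale (edgeR adjusted p = 6.50e-89), and the membrane collectin Colec12 fell by 0.85 (edgeR adjusted p = 9.36e-34). Colec11, which encodes the collectin that pairs with collectin liver 1, had 4 and 6 reads in DPPIV- FAPs and 4 and 1 in DPPIV+ FAPs. Mbl1, Mbl2, Fcnb and Sftpd were at 0 reads in every library.

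Of the 12 genes of the MAL family and of proteins that bind MAL2, 6 passed the filter, with 0 higher, 2 lower and a median log2 fold change of -0.35. The count of higher genes was also 0 at an unadjusted p under 0.05 and with DESeq2. Inf2, a formin that works with MAL2 in transcytosis, had 933 and 878 reads in DPPIV- FAPs and 315 and 370 in DPPIV+ FAPs and fell by 1.24 on the log2 scale (SE 0.09; edgeR adjusted p = 4.16e-42). Tpd52, which encodes a protein that binds MAL2, had 124 and 126 reads against 72 and 69 and fell by 0.67 (SE 0.21; edgeR adjusted p = 0.00662), a call not made by DESeq2 (adjusted p = 0.291) or by edgeR without mouse in the model (adjusted p = 0.0541). The family members Mal and Mall had 8 to 23 reads per library and did not pass the filter.

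The partners of Taf2 and Dscc1 did not include a call. Of 16 listed TFIID symbols, which hold Taf4 also under its former name Taf4a, 15 were counted and all 15 passed the filter. Among them, 0 were called higher or lower, 0 were at an unadjusted p under 0.05 and 0 were called by DESeq2. Their log2 fold changes ran from -0.27 for Taf5 to 0.41 for Taf4b with a median of 0.05, and the most abundant were Taf1 at 60.0 and 63.3 CPM and Taf10 at 30.4 and 32.6 CPM in DPPIV- and DPPIV+ FAPs. Of 23 listed genes of the clamp loaders and of cohesion 19 passed, again with 0 called, 0 at an unadjusted p under 0.05 and 0 by DESeq2. Their log2 fold changes ran from -0.26 for Rfc4 to 0.27 for Rfc3 with a median of 0.00, and the cohesin subunits Smc1a and Rad21 were the most abundant.

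All 16 listed genes of the mTOR complexes, their regulators and assembly factors and the target Sgk1 passed the filter. Among them 1 was higher and 2 were lower, with a median log2 fold change of 0.05. Prr5l, a subunit of mTOR complex 2, had 20 and 10 reads in DPPIV- FAPs and 83 and 53 in DPPIV+ FAPs and rose by a log2 fold change of 2.35 (SE 0.31; edgeR adjusted p = 5.23e-13). Its relative Prr5 went the other way, with 415 and 454 reads against 193 and 261, and fell by 0.79 (SE 0.12; edgeR adjusted p = 3.03e-10). Sgk1, a kinase that mTOR complex 2 activates, fell by 0.56 (SE 0.07; edgeR adjusted p = 5.87e-16), and Mtor itself was at 0.18 (edgeR adjusted p = 0.0523).

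**Figure D5:**
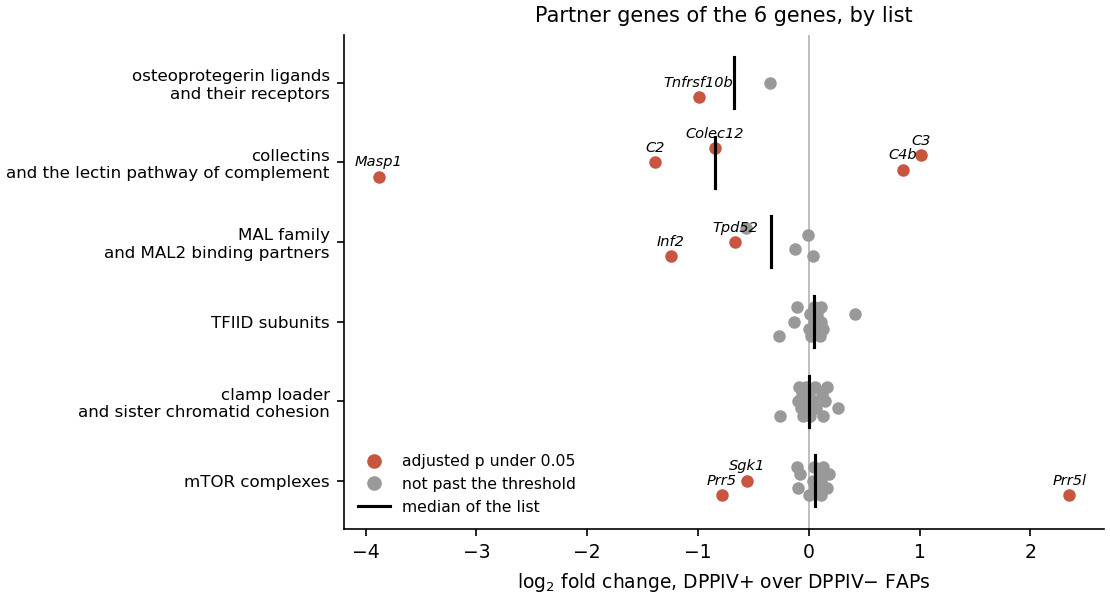
Log2 fold change of DPPIV+ over DPPIV- FAPs (horizontal axis) of each tested gene in the 6 partner lists (rows), with genes past an adjusted p of 0.05 in red and named, other genes in grey, and a black bar at the median of each list. TFIID and the clamp loader and cohesion genes lie between -0.27 and 0.41, whereas the collectin and complement list spreads from -3.88 to 1.01.

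Markers of other cells that the sort could hold were read beside the differences of Colec10 and Mal2. Of 7 epithelial markers none passed the filter, and their summed level was 0.430 and 0.460 CPM in the DPPIV- libraries and 1.89 and 1.26 CPM in the DPPIV+ libraries. Krt8 and Krt18 were at 0 reads in every library and Epcam at 0, 2, 0 and 0, while Krt19 had 7 and 3 reads in DPPIV- FAPs and 30 and 20 in DPPIV+ FAPs. This list does not cover every epithelial gene. Krtdap and Dmkn, near Mal2 in pattern, are outside it. Krtdap had 23 and 10 reads in DPPIV- FAPs and 403 and 259 in DPPIV+ FAPs, and Dmkn had 43 and 19 against 659 and 400. Also outside it is Cldn3, of the same claudin family as the listed Cldn4. Cldn3 had 14 and 4 reads in DPPIV- FAPs and 228 and 145 in DPPIV+ FAPs. Of 5 mesothelial markers none passed either, at sums of 1.05 to 1.98 CPM over the 4 libraries.

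All 4 tenocyte markers (Fmod, Tnmd, Scx and Mkx) were called higher in DPPIV+ FAPs, with sums of 197 and 295 CPM in the DPPIV- libraries and 749 and 1550 CPM in the DPPIV+ libraries. The call of Mkx was lost without mouse in the model (edgeR adjusted p = 0.0648). Of the 6 FAP markers, 5 were called lower in DPPIV+ FAPs by both edgeR and DESeq2, among them Lum at a log2 fold change of -0.85 and Pdgfra at -0.38, and Ly6a was called higher. Mural cell markers were at sums of 121 and 123 CPM in DPPIV- FAPs and 51.2 and 63.5 CPM in DPPIV+ FAPs, with 5 of 6 called lower by edgeR and 3 by DESeq2. Without mouse in the model, 3 FAP markers and 3 mural markers were called lower. All 5 blood endothelial markers and 3 of 6 leukocyte markers were called lower by edgeR, and 0 of either by DESeq2. The part of any of these cells in the differences of the members was not tested.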

How the data were processed

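The authors demultiplexed paired-end reads with bcl2fastq (version 2.20 in the submitters' processing notes), aligned them to mm10 with STAR, tallied them per gene with RnaReadCounter and deposited the raw read counts. The annotation release and the use of strand in counting are not given in the sources used here. The labels name a NEBNext Ultra II kit and the study's methods a TruSeq kit. Counts were analysed with edgeR 4.0.16 and DESeq2 1.42.0 in R 4.3.3 and with pandas 2.3.3 in Python 3.11.15. Genes that reached 2 CPM in 2 or more libraries (CPM here on unscaled totals) were scaled by TMM and compared with the two-sided quasi-likelihood F test, with terms for mouse and cell type and without robust moderation, with Benjamini-Hochberg adjustment over all genes kept and a threshold of 0.05. The model left 1 residual degree of freedom, and edgeR estimated infinite prior degrees of freedom, so the spread of each gene was that of genes of its abundance. Each SE is the absolute log2 fold change divided by the square root of the F statistic. It is therefore not a separate estimate of the spread between animals. The tests were first run on simulated counts that held no difference between mice and had changes only in well-counted genes. That run does not cover genes as scarce as Colec10 and Mal2, or the comparison of the mice.

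The labels give each animal number to both cell types, so mouse was the block. The difference between the mice correlated at 0.434 between the cell types, across genes, which do not count as replicates. Per-mouse log2 ratios used a prior count of 0.125, and counting intervals are exact at 95%. Positions, exon lengths and overlaps were read from GENCODE M21 on GRCm38, where Nov is named Ccn3, and similar transcripts were sought with BLAST (at least 97% identity over at least 50 bases), which found only the antisense partners of Deptor and Dscc1. Members and lists were chosen with earlier results of these data known. Genes named are the members, the window genes, the 3 nearest patterns of each member, Dpp4 and markers. From each partner list, up to 4 called genes with the largest change are named, otherwise the 2 most abundant. Tnfsf10, Tnfsf11, Colec11, Colec12, Mal, Mall, Mtor and Cldn3 were named after their values were seen. So were the lectin genes at 0, the ends of list ranges and single markers. Alternatives were DESeq2, RLE and upper-quartile scaling, robust moderation, no mouse block, no filter, a stricter filter and each mouse left out.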

Additional observations from a re-analysis of the deposited data

How the results depend on the processing

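Without the replicate block for mouse, 2120 genes were called between the cell types in place of 3826, and DESeq2 called 1918. Between the mice, DESeq2 called 110 genes in place of 1041. With mouse alone in the model (no replicate block) edgeR called 0, with 282 at an unadjusted p under 0.05. In that fit the log2 fold change of Mal2 between the mice was -1.30 (edgeR adjusted p = 0.999), and without the replicate block 1 gene of the chromosome 15 window outside the members was called in place of 2, Col14a1 being lost at a log2 fold change of 0.30 (edgeR adjusted p = 0.0629). The causes were not tested. The log2 fold change of Mal2 between the cell types ran from 6.66 to 8.44 when each mouse was left out, which leaves 1 library per cell type and no test, and upper-quartile scaling put that of Taf2 at -0.088. Upper-quartile scaling called 1489 genes higher and 2295 lower, in place of 1837 and 1989. The counts of calls, the members' log2 fold changes and mouse differences and the window genes were recomputed under these alternatives. Of these values 130 were unchanged, 7 moved, 2 lost their call and 0 reversed. Tested values were unchanged if they kept their direction and side of the threshold, members' fold changes if within the replicate spread, and counts of calls if close to the main count. With 2 mice, a fold change with 1 mouse left out lies within that spread almost by construction. Robust moderation leaves the members' fold changes as they were. Such unchanged values therefore say little about stability, and the tally includes them. Mouse differences without an adjusted p in DESeq2, those of Mal2, Colec10 and Tnfrsf11b, are left out. Single partner and marker genes are not in that tally. Colec10 and Mal2 have no value under the filter of 2 CPM in at least 3 libraries, which they did not pass. Depth limits both genes, since their DPPIV- libraries held 0 to 2 reads, and n = 2 mice with 1 residual degree of freedom leaves the p-values to rest on the spread shared across genes.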
